A study of Mus musculus with 3 samples.

Results

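The genes described here encode the initiation and elongation factors of cytosolic protein synthesis, as measured in mouse liver. They were chosen by name: every probe set of the array with a single gene symbol that starts with Eif or Eef and a digit was a member. That gave 66 of the 10833 probe sets with 1 symbol, or 49 of 8251 genes. The rule also takes in enzymes that act on the factors, such as the eIF2 kinases. All 3 arrays held liver RNA of male mice lacking apolipoprotein E on a C57BL/6JxOLA129 background, a strain prone to high plasma cholesterol and atherosclerosis. The mice were 3 months old when assigned, 10 to a control diet, 10 to a diet with c9,t11 conjugated linoleic acid (c9,t11-CLA) and 9 to one with t10,c12-CLA, for 12 weeks. Each diet held its test fatty acid at 1.0% by weight, linoleic acid in the control diet, and fat gave 30% of the energy. The design text calls the diets semi-purified, whereas the sample labels speak of a western diet, and this was not resolved. The isomers have their conjugated double bonds at different places along the chain and with the cis and trans forms arranged differently. Each diet had 1 array and no wild-type mouse was included. The sources used here do not say if an array held 1 mouse or pooled mice. No difference below therefore has a replicate check, a standard error or a p-value.

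Protein synthesis starts when eIF2, carrying GTP and the initiator tRNA, joins the small ribosomal subunit with eIF1, eIF1A, eIF3 and eIF5. The cap-binding complex eIF4F brings the mRNA: eIF4E holds the cap, eIF4G is the scaffold and eIF4A, helped by eIF4B and eIF4H, unwinds the leader. The exchange factor eIF2B reloads eIF2 with GTP, and kinases that phosphorylate eIF2 slow this step under stress. The 4E-binding proteins hold eIF4E back unless mTORC1 phosphorylates them. Elongation then uses eEF1A to deliver aminoacyl-tRNA, the eEF1B subunits to recharge it and eEF2 to move the ribosome. Liver makes most plasma proteins and adjusts these steps to feeding.

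The results below turn on the eIF4A and eIF4B genes, which were lower together on t10,c12-CLA. The eIF4A genes were lower on c9,t11-CLA too, 1.67-fold for Eif4a1 and 1.76-fold for Eif4a2, and the probe sets of Eif4b disagreed there. The results also turn on Eef1a1 and Eef2, which stood highest on c9,t11-CLA. For Eef2 the difference from control was small, 1.24-fold. The promoters of all these genes are shown as the 250 bases before the annotated start, 5′ to 3′, from RefSeq (GRCm38.p6). They lie at chr11:69672424-69672673 on the minus strand for Eif4a1, chr16:23107218-23107467 on the plus strand for Eif4a2, chr15:102073523-102073772 on the plus strand for Eif4b, chr9:78481725-78481974 on the minus strand for Eef1a1 and chr10:81176381-81176630 on the plus strand for Eef2. Capitals mark an E-box, a CCAAT box or a TATA box.
Eif4a1: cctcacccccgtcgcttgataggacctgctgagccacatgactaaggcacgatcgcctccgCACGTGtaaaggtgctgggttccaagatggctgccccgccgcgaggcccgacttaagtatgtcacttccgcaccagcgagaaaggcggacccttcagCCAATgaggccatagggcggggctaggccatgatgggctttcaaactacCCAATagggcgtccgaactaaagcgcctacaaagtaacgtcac
Eif4a2: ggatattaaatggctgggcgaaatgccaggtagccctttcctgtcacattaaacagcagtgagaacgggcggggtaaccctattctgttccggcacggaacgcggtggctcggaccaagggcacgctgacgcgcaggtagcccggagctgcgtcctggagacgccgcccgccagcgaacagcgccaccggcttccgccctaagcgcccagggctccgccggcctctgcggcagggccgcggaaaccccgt
Eif4b: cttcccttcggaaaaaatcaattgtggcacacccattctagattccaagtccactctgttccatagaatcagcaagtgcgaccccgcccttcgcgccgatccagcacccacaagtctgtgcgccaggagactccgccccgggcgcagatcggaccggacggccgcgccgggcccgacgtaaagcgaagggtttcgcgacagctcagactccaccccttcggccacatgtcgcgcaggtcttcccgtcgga
Eef1a1: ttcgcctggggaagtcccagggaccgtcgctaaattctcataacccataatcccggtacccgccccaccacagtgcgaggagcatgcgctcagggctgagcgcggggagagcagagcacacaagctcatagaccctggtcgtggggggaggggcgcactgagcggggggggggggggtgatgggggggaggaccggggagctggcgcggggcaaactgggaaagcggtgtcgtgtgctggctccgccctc
Eef2: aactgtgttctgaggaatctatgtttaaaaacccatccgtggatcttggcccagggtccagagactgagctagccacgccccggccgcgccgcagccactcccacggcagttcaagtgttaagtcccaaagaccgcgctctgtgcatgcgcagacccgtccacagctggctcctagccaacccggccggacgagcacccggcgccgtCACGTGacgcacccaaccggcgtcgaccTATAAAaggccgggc
In Eif4a1 the capitals mark an E-box 189 bases before the start and CCAAT boxes at 92 and 43 bases. In Eef2 they mark an E-box at 43 bases and a TATA box at 15 bases, and the other 3 promoters held none of the marked motifs. Of the 49 genes, 41 had a promoter in the RefSeq table. Both strands were searched for the E-box CACGTG, which MYC family and related factors bind, for CCAAT, for TATAAA, for the ETS core CCGGAAG, for the GC box GGGCGG, for the CRE TGACGTCA and for the ATF4 element TGATGNAA. None of these letter strings contains another, although matches can lie side by side or overlap by a few letters. The E-box was found in 9 of the 41 genes, or 22% of them, against 9.94% of the 6572 array genes with a promoter in the table. By promoters it was in 11 of 56 (19.6%), 8.22% of those of array genes and 6.02% of all 32851 in the table. The ETS core was in 9 genes (22%, against 13.6% of array genes) and the GC box in 29 (70.7%, against 58.9%). CCAAT was in 12 genes (29.3%, against 40%), TATAAA in 4 (9.76%, against 10.9%) and the ATF4 element in 2 (4.88%, against 2.63%). Among promoters of members, of array genes and of the whole table, the ETS core was in 16.1%, 11.3% and 6.91%. In the same order the GC box was in 64.3%, 52.8% and 32.7% and CCAAT in 21.4%, 34.6% and 33.8%. TATAAA was in 7.14%, 8.93% and 12.4% and the ATF4 element in 3.57%, 2.14% and 3.45%. The CRE was found in no member promoter, against 2.21% of those of array genes and 1.55% of all promoters. Several promoters of 1 gene overlap, so they are not separate observations, and a match is only a description of these letters.

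Values were MAS5 signals, hybridisation intensities on a linear scale that had been brought to a common trimmed mean of 1501 on each array. Signals under 490.3, the median over all probe sets and arrays, were treated as too dim to use. This value is called the floor, and a gene counts as measured in a comparison if the brightest of its probe sets exceeds it on each array compared. Median signals were 457 for control, 524 for c9,t11-CLA and 487 for t10,c12-CLA. Apoe, disrupted in all the mice, gave signals of 6570, 8695 and 4288 in that order. Whether its probe set lies in the disrupted part is not stated, so this does not check the genotype. Gapdh had 3′ to 5′ signal ratios, which reflect RNA quality, of 1.06, 0.98 and 0.78, and those of beta-actin were 1.40, 1.89 and 1.35. All 8 hepatocyte markers on the array lay above the floor on every array, with summed signals of 259193, 491496 and 268101, and all 10 macrophage markers did so too, with 65857, 58347 and 96684. Of 6 skeletal muscle markers 1 was above the floor on the control array and none on the others, and no marker signal was 0. In bulk liver RNA, fewer cells of a type and less RNA per cell cannot be told apart, and the part of cell makeup in the differences was not tested.

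Of the 49 genes, 36 were above the floor on all 3 arrays, 3 on 2 arrays (Eef1akmt1, Eif2s3y and Eif3f), 2 on 1 array (Eef2k and Eif5a) and 8 on none. Those 8 were Eef1g, Eif2ak2, Eif2ak3, Eif2ak4, Eif2s2, Eif4e, Eif4enif1 and Eif4h. For them no difference is given, and a dim probe set says nothing about the amount of protein or of mRNA. In the plot of signals by role, most genes span a narrow range while a few, such as Eif2d, Eif2b1 and Eef1a1, have 1 array apart from the other two.

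**Figure D1:**
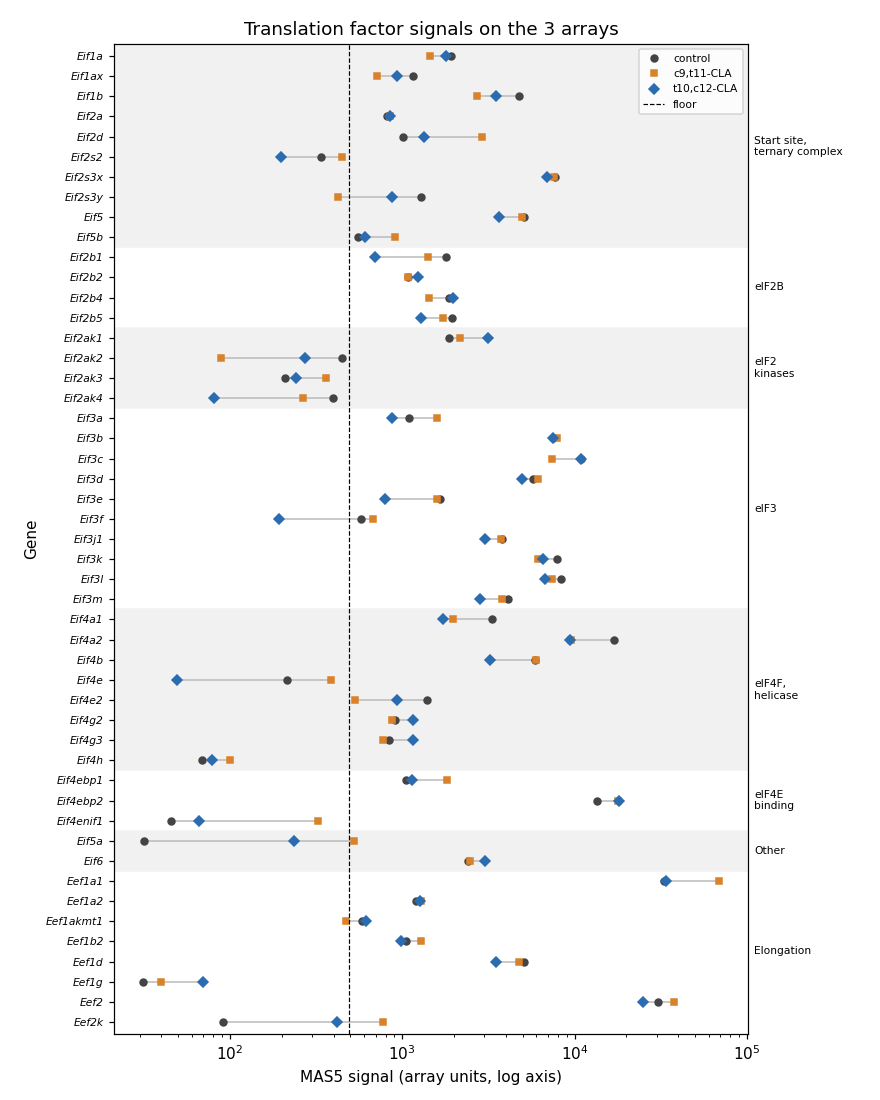
MAS5 signal (log axis) of the brightest probe set of each of the 49 translation factor genes, in rows by role, with a circle for control, a square for c9,t11-CLA and a diamond for t10,c12-CLA; the dashed line is the floor of 490.3 and the grey line joins the lowest to the highest array. Eef1a1 stands at 69048 on the c9,t11-CLA array against 32890 and 34088 on the others, and the 8 genes wholly left of the floor were not measured.

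The factors as a class differed little more than other genes. Among the 36 genes above the floor on all arrays, the median distance from the lowest to the highest array was 0.56 on the log2 scale, against 0.52 over the 4154 genes measured in the same way. It was smallest, 0.05, for Eif2a, an alternative initiation factor, and largest, 1.54, for Eif2d. In 5 genes, Eef1a2, Eif2a, Eif2b2, Eif2s3x and Eif3b, all arrays agreed within 1.2-fold, 13.9% of members against 17.9% of all genes. The control array was the highest for 17 of the 36 genes (47.2%, against 31.9% of all genes), the c9,t11-CLA array for 12 (33.3%, against 38.6%) and the t10,c12-CLA array for 7 (19.4%, against 29.6%). The t10,c12-CLA array was the lowest for 17 (47.2%, against 34.2%).

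The first comparison asked how the c9,t11 isomer differed from linoleic acid at the same dose. On c9,t11-CLA, Eif2d and Eef1a1 were more than 2-fold higher and Eif4e2 was more than 2-fold lower than on control. At least 2-fold higher were 2 genes and lower 1, when 2.98% and 2.78% of all genes were. Of 37 measured genes, 4 were at least 1.5-fold higher (10.8%), when 13% of the 4324 measured genes of all kinds were, and 5 were at least 1.5-fold lower (13.5%), when 11.1% were. These shares are near those of all genes and give no result about the factors as a class. With equal array medians the counts were 3 higher and 8 lower, but 7.26% and 19.1% of all genes were then higher and lower. The median log2 difference of the factors was -0.03, with 16 genes above 0 and 21 below, and that of all genes was 0.02, with 52.2% above 0.

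The second comparison put the t10,c12 isomer beside linoleic acid. On t10,c12-CLA more factors were lower than higher: 7 of 38 measured genes were at least 1.5-fold lower (18.4%, against 8.7% of 4391 genes of all kinds) and 1 was at least 1.5-fold higher (2.63%, against 9.31%). At least 2-fold lower were 2 genes (Eif2b1 and Eif3e) and higher none, against 1.87% and 2.05% of all genes. The lower genes were Eif2b1, Eif3e, Eif4a1, Eif4b, Eif4a2, Eif2b5 and Eif4e2, and the higher gene was Eif2ak1. The median log2 difference was -0.18, with 14 genes above 0 and 24 below, and that of all genes was -0.01, with 49.1% above 0. No test of the list was possible with 1 array per diet. Both comparisons use the same control array, so a high or low control signal enters both.

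A technical yardstick sets the scale for single genes. From pairs of probe sets of 1 gene, the SD of a single log2 difference was 0.49 over 529 pairs for c9,t11-CLA against control, 0.40 over 566 pairs for t10,c12-CLA against control and 0.50 over 553 pairs between the isomers. It holds probe and measurement error but not the variation between mice. A 1.5-fold difference is 0.58 on the log2 scale, little more than 1 such SD, and a 2-fold difference is 1. The log2 differences of the factors had SDs of 0.54, 0.46 and 0.53 in these comparisons, and those of all genes 0.53, 0.47 and 0.55.

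**Figure D2:**
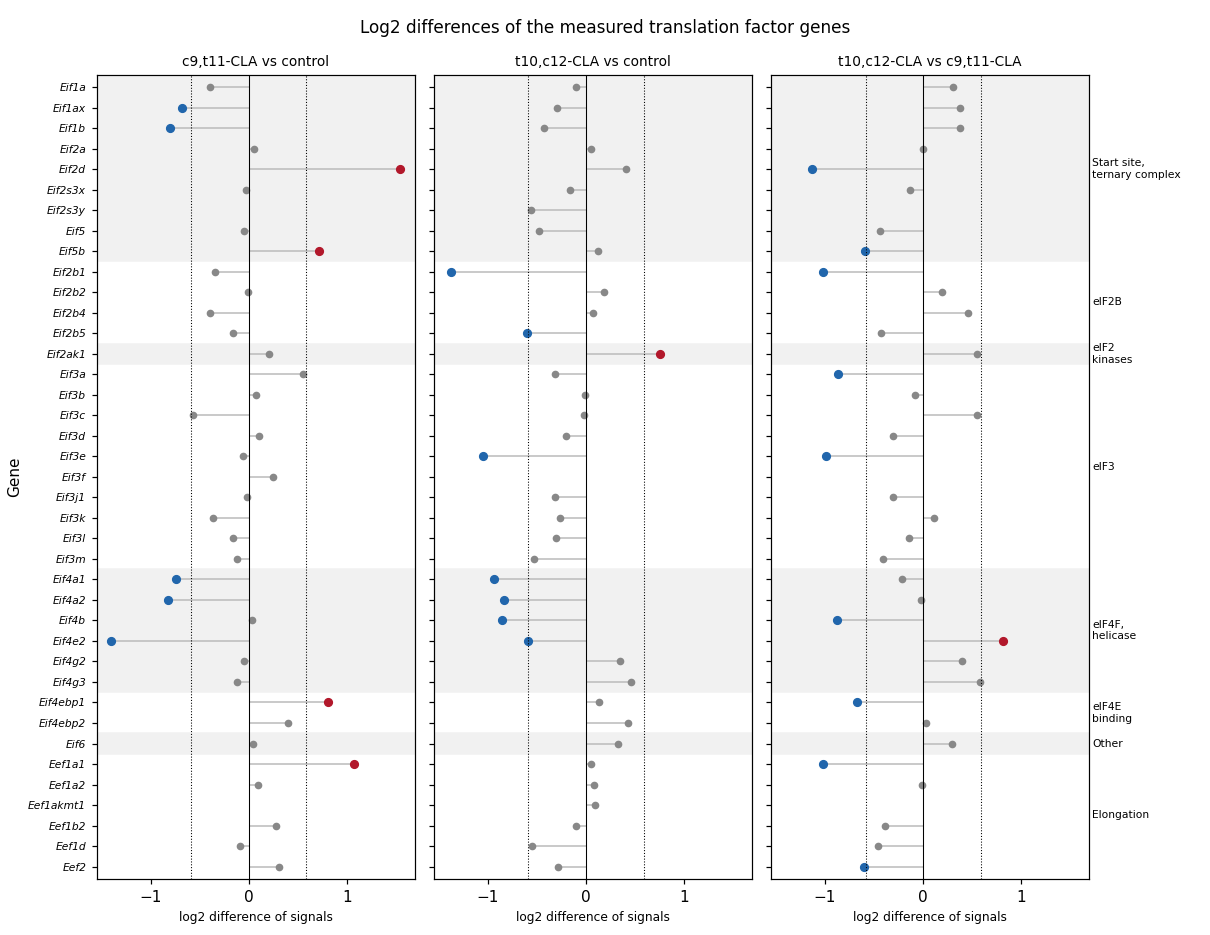
Log2 difference of signals for each measured translation factor gene, in rows by role, in the 3 comparisons; red and blue points are at least 1.5-fold higher and lower (dotted lines), grey points are nearer 0, and a gene not measured in a comparison has no point. Most points in the middle panel lie left of 0, 24 of 38, when 49.1% of all genes lay above 0, and Eif2d in the left panel reaches 1.54.

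**Figure D3:**
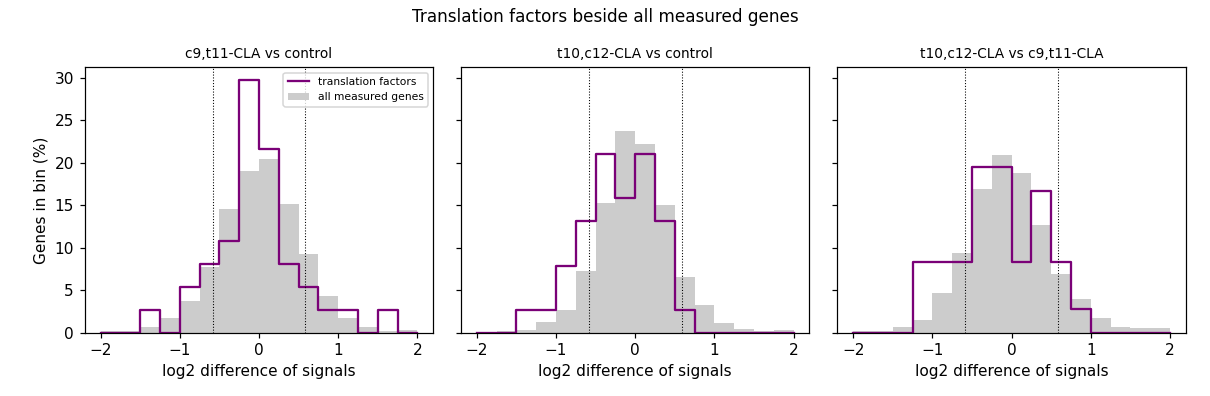
Share of genes per bin of log2 difference (0.25 wide, values beyond the axis placed in the end bins) for the measured translation factors (line) and all measured genes (bars) in the 3 comparisons, with dotted lines at 1.5-fold. For t10,c12-CLA against control the line lies left of the bars, with medians of -0.18 and -0.01.

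The factors that bring the initiator tRNA and select the start codon held the gene with the largest positive difference on c9,t11-CLA and 2 of the 5 that were at least 1.5-fold lower there. Eif2d, a factor that can deliver initiator tRNA without GTP and also acts in ribosome recycling, gave 1004 on control, 2909.5 on c9,t11-CLA and 1330 on t10,c12-CLA. The c9,t11-CLA array stood apart, 2.90-fold above control, while t10,c12-CLA was 1.32-fold above it. Another probe set of Eif2d was dim, at 64.0, 113 and 193, and gives no second reading. Eif5b, the GTPase that joins the ribosomal subunits, gave 557, 908 and 604 in the same order, near the floor, and was 1.63-fold higher on c9,t11-CLA. Its fold was 1.42 with equal array medians and 1.46 after quantile normalization, short of 1.5.

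Eif1b, a close relative of the start codon scanning factor eIF1, gave 4731 on control, 2711 on c9,t11-CLA and 3518 on t10,c12-CLA. Control was the highest, and the gene was 1.75-fold lower on c9,t11-CLA and 1.34-fold lower on t10,c12-CLA. Eif1ax, the X-linked gene of the scanning factor eIF1A, gave 1149, 718 and 936.5, 1.60-fold lower on c9,t11-CLA. Its second probe set gave 683, 640 and 807, a log2 difference of only -0.09 for c9,t11-CLA, so the 1.60-fold difference rests on the brighter probe set. Eif1a, its autosomal relative, had log2 differences of -0.40 and -0.28 by its probe sets on c9,t11-CLA and of -0.10 and -0.60 on t10,c12-CLA. The sequences of such relatives are alike, and cross-hybridisation between them was not tested.

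The core subunit of eIF2 was steady. Eif2s3x, the X-linked gene of its gamma subunit, gave 7697 on control, 7561 on c9,t11-CLA and 6902 on t10,c12-CLA. Its Y-linked copy Eif2s3y gave 1281, 424 and 871, at least 2.61-fold lower on c9,t11-CLA, from a probe set whose identifier marks a gene family, so X and Y signals may mix. It was below the floor on the c9,t11-CLA array only and gives no firm check of the labelled male sex. Eif2s2, of the beta subunit, was below the floor throughout. Eif5, which makes eIF2 hydrolyse its GTP, gave 5110 on control, 4946 on c9,t11-CLA and 3655 on t10,c12-CLA, 1.40-fold lower on t10,c12-CLA. Eif2a gave 821, 850.2 and 849.

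The eIF2B subunits did not move together on t10,c12-CLA. Eif2b1, of the regulatory alpha subunit, gave 1798 on control, 1412 on c9,t11-CLA and 698 on t10,c12-CLA, 2.58-fold lower on t10,c12-CLA than on control, the largest difference of any measured factor in that comparison. Eif2b5, of the catalytic epsilon subunit, gave 1941, 1734 and 1284, 1.51-fold lower, just past the 1.5-fold mark. Its second probe set gave 624, 813 and 536, a log2 difference of -0.22. The regulatory beta subunit gene Eif2b2 gave 1082, 1077 and 1229 and the delta subunit gene Eif2b4 1875, 1424 and 1964, so both were slightly above control on t10,c12-CLA, by 0.18 and 0.07 on the log2 scale. On c9,t11-CLA the log2 differences of the 4 genes ran from -0.40 to -0.01.

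Of the 4 eIF2 kinases only Eif2ak1, the heme-regulated kinase, was measured. It gave 1875 on control, 2160 on c9,t11-CLA and 3152 on t10,c12-CLA, where it was 1.68-fold higher, the only factor at least 1.5-fold higher on that diet; the fold was 1.58 with equal array medians and 1.65 after quantile normalization. Eif2ak2, the kinase activated by double-stranded RNA, gave signals of 447, 88.6 and 274. Eif2ak3, the kinase of the endoplasmic reticulum, gave 208, 359 and 242, and Eif2ak4, the sensor of uncharged tRNA, 395, 265 and 81.1. All of these lay under the floor, so they have no order.

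The eIF3 complex, the scaffold that holds the small subunit and the mRNA together, was slightly lower on t10,c12-CLA. All 9 measured subunit genes were below control there, with a median log2 difference of -0.31 and a range of -1.05 to -0.01, although after quantile normalization 2 of the 9 were above 0. Eif3b and Eif3c were nearly level with control, at -0.01 and -0.02. On c9,t11-CLA 4 of 10 were above control and 6 below, with a median of -0.04. Of all genes 49.1% were above control on t10,c12-CLA and 52.2% on c9,t11-CLA. Eif3e stood apart from the rest: it gave 1648 on control, 1583 on c9,t11-CLA and 796 on t10,c12-CLA, 2.07-fold lower on t10,c12-CLA than on control. A second Eif3e probe set was below the floor on all arrays and gives no second reading. Eif3f, below the floor at 193 on t10,c12-CLA against 573 and 677, was at least 1.17-fold lower. Eif3m, like Eif3e and Eif3f a subunit outside the core known from budding yeast, gave 4090.0, 3776 and 2837, 1.44-fold lower.

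Other eIF3 genes each had a pattern of their own. Eif3b, of a core subunit, gave 7527 on control, 7919 on c9,t11-CLA and 7486 on t10,c12-CLA, within 1.06-fold. Eif3c, of another core subunit, gave 10966, 7394 and 10848, so that c9,t11-CLA was 1.48-fold below control. Eif3a, of the largest subunit, gave 1093, 1596 and 874, 1.46-fold above control on c9,t11-CLA. The remaining genes Eif3d, Eif3j1, Eif3k and Eif3l had log2 differences between -0.37 and 0.10 in both comparisons with control.

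The group of cap complex, helicase and related genes had 6 measured members. Eif4e2 and Eif4g2 were among them, but Eif4e was under the floor. At least 1.5-fold lower were 4 of 6 on t10,c12-CLA and 3 of 6 on c9,t11-CLA, Eif4e2 included on each diet. None was that much higher on either diet, and over all genes 8.7% and 11.1% were at least 1.5-fold lower. The counts were the same with equal array medians and after quantile normalization. With unmarked probe sets only, 2 of 4 were lower on each diet and the median on t10,c12-CLA moved from -0.71 to -0.12, and with a pseudocount of 50 the count on t10,c12-CLA was 3 of 6. The helicase genes were low on both CLA arrays. Eif4a2 gave 16884 on control, 9587 on c9,t11-CLA and 9469 on t10,c12-CLA, 1.76-fold and 1.78-fold lower. Eif4a1, its close relative, gave 3303, 1983 and 1719, 1.67-fold and 1.92-fold lower. The CLA arrays were thus near each other and control alone was high. The Eif4a1 probe set carries a mark of incomplete probe selection and is the only one of the gene, and both differences of each gene share the control signal.

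Eif4b, of the protein that stimulates eIF4A, gave 5864 on control, 5989 on c9,t11-CLA and 3251 on t10,c12-CLA by its brightest probe set, 1.80-fold lower on t10,c12-CLA. Another probe set gave 1117, 499 and 539.5. The probe sets point the same way on t10,c12-CLA, at -0.85 and -1.05, but apart on c9,t11-CLA, at 0.03 and -1.16. Both are marked as imperfect by their identifiers, and 2 more probe sets of the gene were below the floor.

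Eif4e2, whose product binds the cap and is known for repressing translation, gave 1399 on control, 530.2 on c9,t11-CLA and 929.5 on t10,c12-CLA. It was 2.64-fold lower on c9,t11-CLA, where the signal lay just above the floor, and 1.51-fold lower on t10,c12-CLA. A second, marked probe set gave 190, 539 and 275.5, with c9,t11-CLA the highest, the opposite order by signals mostly under the floor. Eif4e itself, the main cap-binding protein, had signals of 213, 387 and 49.1, all under the floor. The scaffold genes were close to control on c9,t11-CLA and slightly above on t10,c12-CLA. Eif4g3 gave 839, 773 and 1153, and Eif4g2, of a relative that lacks the eIF4E site, gave 902, 872 and 1148, with log2 differences of 0.46 and 0.35 on t10,c12-CLA.

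The 2 measured genes of 4E-binding proteins were above control on each CLA diet. Of all genes 52.2% were above control on c9,t11-CLA and 49.1% on t10,c12-CLA. Eif4ebp2 gave 13506 on control, 17814 on c9,t11-CLA and 18221 on t10,c12-CLA, 1.32-fold and 1.35-fold higher, and its second probe set had log2 differences of 0.46 and 0.18. Eif4ebp1, of the binding protein that stress can induce, gave 1047, 1819 and 1145. The c9,t11-CLA array was 1.74-fold above control, or 1.52-fold with equal array medians. The t10,c12-CLA array was near control, 1.09-fold above it, or 1.03-fold with equal array medians. Eif6, which keeps the ribosomal subunits apart and is known to promote fatty acid synthesis in liver, gave 2398.5, 2462.5 and 3016, 1.26-fold above control on t10,c12-CLA. Eif5a, the hypusine-carrying factor, gave 31.9, 527 and 235, at least 1.08-fold higher on c9,t11-CLA, a bound set by the floor.

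In the elongation group, 4 of 5 measured genes were higher on c9,t11-CLA. On t10,c12-CLA there was no common direction, with 3 of 6 above control. The 6 include the methyltransferase gene Eef1akmt1, at 0.09 on the log2 scale, which was not measured for c9,t11-CLA against control. Of all genes 52.2% and 49.1% were above control on these diets. With equal array medians 3 of 5 and 0 of 6 elongation genes were above control. Eef1a1, of the factor that delivers aminoacyl-tRNA, gave 32890 on control, 69048 on c9,t11-CLA and 34088 on t10,c12-CLA. It was 2.10-fold higher on c9,t11-CLA and within 1.04-fold of control on t10,c12-CLA. Bright genes of all kinds were higher on the c9,t11-CLA array: the 100 genes of highest mean signal, Eef1a1 among them, had a median log2 difference of 0.42 there, with 35 at least 1.5-fold higher and 2 lower, against -0.02 on t10,c12-CLA. After quantile normalization Eef1a1 was 1.57-fold higher. Eef1a1 has many processed pseudogenes, whose part in the signal was not tested.

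Eef2, of the translocase, gave 30285 on control, 37634 on c9,t11-CLA and 24857 on t10,c12-CLA, 1.24-fold above and 1.22-fold below control. On c9,t11-CLA its fold was 1.09 with equal array medians and 1.13 after quantile normalization. The unscaled log2 difference of Eef2 there, 0.31, was less than the yardstick SD of 0.49. Eef2k, of the kinase that inactivates eEF2, gave 90.9, 772 and 417, at least 1.57-fold higher on c9,t11-CLA; the control and t10,c12-CLA signals lay under the floor. Eef1a2, the form of eEF1A known from muscle and neurons, gave 1203, 1280 and 1272, close together on all arrays. Of the exchange factor subunits, Eef1d gave 5103, 4789 and 3487, 1.46-fold below control on t10,c12-CLA. Eef1b2 gave 1051, 1280 and 978 by its brightest probe set, and a second gave 326, 787 and 309, high on c9,t11-CLA only. The methyltransferase gene Eef1akmt1 gave 581, 474 and 617, near the floor.

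The third comparison set the isomers side by side at the same dose and time. Factors were lower on t10,c12-CLA than on c9,t11-CLA more often than higher: 9 of 36 measured genes were at least 1.5-fold lower (25%, against 12.8% of 4382 genes of all kinds) and 1 was at least 1.5-fold higher (2.78%, against 11.5%). At least 2-fold lower were 3 genes and higher none, against 2.56% and 3.47%. The 1.5-fold split followed the scaling, with 6 lower and 4 higher at equal array medians, when 8.95% and 14.6% of all genes were, and 6 lower and 2 higher after quantile normalization, when 11.5% and 11.9% were. The median log2 difference was -0.14, against -0.05 over all genes. No interval can be given for any of these differences without replicates.

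The 9 lower genes were Eif2d (2.19-fold), Eef1a1 (2.03-fold), Eif2b1 (2.02-fold), Eif3e (1.99-fold), Eif4b (1.84-fold), Eif3a (1.83-fold), Eif4ebp1 (1.59-fold), Eef2 (1.51-fold) and Eif5b (1.5-fold). They came about in different ways. Eif2d, Eef1a1, Eif4ebp1 and Eif5b were at least 1.5-fold above control on c9,t11-CLA and near or moderately above control on t10,c12-CLA. Eif2b1, Eif3e and Eif4b were instead low on t10,c12-CLA, whereas Eif3a and Eef2 lay above control on one isomer and below it on the other. The second Eif4b probe set stood at 0.11 between the isomers, against -0.88 for the brightest. With equal array medians the folds of Eef2, Eif5b and Eif4ebp1 were 1.41, 1.40 and 1.48, and after quantile normalization those of Eef2, Eif5b and Eef1a1 were 1.27, 1.41 and 1.46, all short of 1.5.

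In the other direction only Eif4e2 passed 1.5-fold, with the t10,c12-CLA signal 1.75-fold above that on c9,t11-CLA; Eif4g3 was 1.49-fold higher and passed 1.5-fold with equal array medians or quantile normalization, at 1.60. Eif3c and Eif2ak1 passed it with equal array medians, at 1.58-fold and 1.57-fold, but not after quantile normalization, at 1.42-fold and 1.43-fold. Eif2s3y, above the floor on 1 of these arrays only, was higher by at least 1.78-fold, and Eef2k at least 1.57-fold lower. The isomers were near each other for Eif4a2, Eif4ebp2, Eef1a2 and Eif2a, with log2 differences of -0.02, 0.03, -0.01 and -0.00. All 5 measured elongation genes were lower on t10,c12-CLA than on c9,t11-CLA, with a median of -0.46. Under equal array medians or quantile normalization 4 of the 5 were lower. Of all genes 45.7% were higher on t10,c12-CLA than on c9,t11-CLA. The 100 genes of highest mean signal, Eef1a1 among them but not Eef2, had a median of -0.43 between the isomers. Of these 100 genes 34 were at least 1.5-fold lower on t10,c12-CLA and 1 was higher.

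Of the 49 genes, 14 had more than 1 probe set, and in 5 of these a second was measured in each comparison. For c9,t11-CLA against control the signs agreed in Eif1a, Eif1ax and Eif4ebp2 and not in Eif2b5 and Eif4b. For t10,c12-CLA against control they agreed in all but Eif1ax. Between the isomers they agreed in Eif1ax and Eif2b5 only. Most differences here rest on a single probe set.

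Other genes of the pathway came from lists chosen by function. Release, recycling and rescue genes were 1.5-fold or more above control in 2 of 7 measured cases on c9,t11-CLA and as far below it in 2 of 7 on t10,c12-CLA, where 13% and 8.7% of all genes were. Pelo, which frees stalled ribosomes, gave 818 on control, 1741 on c9,t11-CLA and 1108 on t10,c12-CLA, 2.13-fold higher on c9,t11-CLA. It and Gtpbp1 (1.74-fold) were the genes counted as higher on c9,t11-CLA, and both rest on probe sets marked as imperfect by their identifiers. Gspt2, a release factor GTPase, was at least 2.11-fold higher on c9,t11-CLA. Between the isomers 3 of 8 were at least 1.5-fold lower on t10,c12-CLA, against 12.8% of all genes, with a median of -0.52.

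Among poly(A)-binding and cap regulators, 4 of 9 were at least 1.5-fold higher on c9,t11-CLA and none lower, and on t10,c12-CLA 1 of 7 was higher and 2 were lower. Over all genes the shares were 13% and 11.1% on c9,t11-CLA and 9.31% and 8.7% on t10,c12-CLA. Mknk2, a kinase that phosphorylates eIF4E, gave 4044, 8684 and 9375, 2.15-fold and 2.32-fold above control. Pabpc4, a poly(A)-binding protein, gave 2252, 2205 and 1075, 2.09-fold lower on t10,c12-CLA. Paip2, which takes poly(A)-binding protein off the mRNA, gave 734, 1157 and 422, at least 2.36-fold lower on t10,c12-CLA than on c9,t11-CLA.

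The mTORC1 list, the pathway that acts on the 4E-binding proteins and S6 kinase, had 2 of 6 members 1.5-fold or more above control on each CLA diet, with medians of 0.26 and 0.42, and 1 lower on c9,t11-CLA. Of all genes 13% and 9.31% were as much higher on these diets, and 11.1% lower on c9,t11-CLA. Akt1s1, an mTORC1 inhibitor subunit, gave 552, 1139 and 1230, 2.06-fold and 2.23-fold above control, and Ddit4, an inhibitor of mTORC1 signalling, gave 381, 4100.5 and 3949, at least 8.36-fold and 8.05-fold higher. Mtor gave 1626, 1969 and 2510, 1.54-fold higher on t10,c12-CLA. Sesn1, a further inhibitor, gave 1205, 523 and 1091, 2.30-fold lower on c9,t11-CLA. The 2 measured genes past 1.5-fold upward were Akt1s1 and Tsc1 (1.61-fold) on c9,t11-CLA, where Mtor was 1.21-fold higher. On t10,c12-CLA they were Akt1s1 and Mtor.

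Genes of the integrated stress response, which follows phosphorylation of eIF2, had a median of -0.33 over 7 measured genes on c9,t11-CLA and 0.53 over 7 on t10,c12-CLA, with 1 and 2 genes past 1.5-fold upward (13% and 9.31% of all genes) and 2 and 0 downward (11.1% and 8.7%). Atf4, its central transcription factor, gave 5387, 3813 and 4059, below control on both. Ppp1r15a, the phosphatase subunit that restores eIF2, gave 440, 1135 and 1269, at least 2.31-fold and 2.59-fold higher than control. Vldlr was at least 1.99-fold higher on c9,t11-CLA. On t10,c12-CLA Trib3 was at least 1.83-fold and Ddit3 at least 1.23-fold higher. These genes were under the floor on control, so the medians against control leave them out, and the sign of the c9,t11-CLA median depends on that rule. Slc3a2, an amino acid transporter subunit, gave 5477, 2862 and 7918, 2.77-fold higher on t10,c12-CLA than on c9,t11-CLA. Between the isomers, t10,c12-CLA was the higher by 1.5-fold or more in 4 of 8 genes and the lower in none, against 11.5% and 12.8% of all genes.

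Cytosolic tRNA synthetases had medians of 0.15 over 18 measured genes on c9,t11-CLA and 0.01 over 17 on t10,c12-CLA, with 3 and 2 at least 1.5-fold higher and 1 and 1 lower, beside 13% and 9.31% higher and 11.1% and 8.7% lower over all genes. Nars, the asparaginyl-tRNA synthetase, gave 857, 1197 and 1719, 2.01-fold higher on t10,c12-CLA. Sars, the seryl-tRNA synthetase, gave 1187, 308 and 1403, at least 2.42-fold lower on c9,t11-CLA than on control. Mitochondrial translation factors, with 4 measured, had medians of 0.15 and -0.24. Cytosolic ribosomal protein genes had medians of -0.04 over 25 genes on c9,t11-CLA, -0.23 over 25 on t10,c12-CLA and -0.13 over 26 between the isomers, beside -0.03, -0.18 and -0.14 for the factors.

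**Figure D4:**
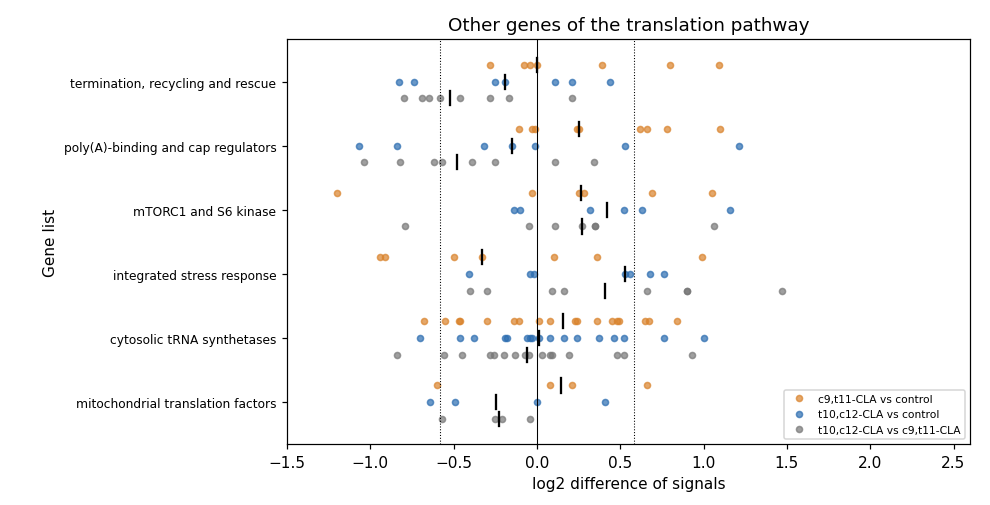
Log2 difference of signals for each measured gene of 6 lists of the translation pathway in the 3 comparisons (orange, blue and grey points); black ticks are medians and dotted lines mark 1.5-fold. Over its measured genes the stress response list has medians of -0.33 on c9,t11-CLA and 0.53 on t10,c12-CLA, and the synthetases cluster around 0. Genes above the floor on only 1 array of a comparison have no point and enter no median.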

How the data were processed

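Liver RNA was hybridised to 3 Affymetrix mouse arrays, 1 per diet; per the labels, biotinylated cRNA came from 8 µg of total RNA. The deposited values are MAS5 signals, an intensity per probe set on a linear scale, made by the authors with MAS5 per the submitters' processing notes; version, detection calls and scaling target are not given in the sources used here. Signals were used unscaled.

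Of 12488 probe sets in the table, 66 served as array controls, 396 had several symbols and 1193 none. Symbols came from the platform annotation, updated by Entrez identifier through RefSeq genes of GRCm38.p6 (10817 of 10833 matched). All 66 members matched by either symbol; 1 probe set shared by Eif4a3 and its copies was left out, and 10 members carry a letter before "_at" that marks imperfect probes. A gene took its probe set of highest mean log2 signal. A gene above the floor of 490.3 on 1 array only was given as at least N-fold, its signal over the floor.

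The named genes are members at least 1.5-fold apart in a comparison, or with an at-least fold of that size, the brightest of each role and those with disagreeing probe sets, and list genes at least 2-fold apart; the other values were added after they were seen. The members, lists and settings were chosen with earlier results of these data known. Promoter motifs and the 100 brightest genes were added later.

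Alternatives were equal medians, quantile normalization, floors at the 25th and 75th percentile, a pseudocount of 50, the mean of probe sets, and unmarked probe sets only. Python 3.11.15, numpy 2.4.6, pandas 2.3.3, scipy 1.17.1 and matplotlib 3.10.9 were used, and counting was tested on simulated signals. With 1 array per diet, the number of arrays limits the precision.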

Additional observations from a re-analysis of the deposited data

How the results depend on the processing

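No paired analysis was possible because each diet had 1 array. Scaling to equal array medians moved the median of all genes from 0.02 to -0.16 for c9,t11-CLA against control, and that of the factors to -0.22; between the isomers the median of the factors became -0.03. With the floor at the 75th percentile, 1510.9, fewer genes were measured and 4, 4 and 3 factors were at least 1.5-fold apart for c9,t11-CLA against control, t10,c12-CLA against control and between the isomers, against 9, 8 and 10. The other medians of the factors moved by less than 0.1 and the other counts by at most 1.5 times. The 27 differences of single factors past 1.5-fold kept their sign under every alternative that could give a value, 11 of them with the high floor and 23 with unmarked probe sets. The floors and the pseudocount could not change a sign. The mean of probe sets and the unmarked probe sets repeat the same value where a gene had 1 measured probe set. Equal medians moves every difference of a comparison by the same amount, for Eef1a1 on c9,t11-CLA against control from 1.07 to 0.87. That is too little to reverse a 1.5-fold difference. For most genes, therefore, only quantile normalization could have changed the sign. Past 1.5-fold remained 23 of 27 with equal medians, 23 with quantile normalization, and 24 each with the pseudocount and the mean of probe sets. Signals under the floor, Eif4e among them, limit what can be said of those genes.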
